A study of Mus musculus with 8 samples.

Results

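The unmanipulated embryonic mouse retina of this series is represented by its 4 control libraries, out of 8 libraries in all. They were chosen by their labels alone, as the samples titled control with the genotype Smo CKO/CKO. These mice carried conditional alleles of Smo, the membrane transducer of Hedgehog signals, and no Cre, so that the gene was left whole. Both groups of the study carried these alleles on a CD1 albino background, and the other 4 libraries, in which Rax-Cre removed Smo from the optic vesicle onward, were not analysed here. RNA came from dissected retinas with all their cell types, and each library counted 3′ tags per gene. The cell type label of controls 1 to 4 gives embryonic day 13, 14, 15 and 16 in turn, and it goes on rising by 1 day per library through the other 4 libraries. The design text gives day 13 for the whole series, and the study's text gives a single age. With 1 library for each labelled day, a difference in age and a difference between libraries cannot be told apart, and the libraries are called control 1 to 4 below. The labels do not state whether a library is 1 embryo, 1 litter or a pool, so a spread between libraries may be in part technical.

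At this stage the neural retina is a sheet of dividing progenitors that starts to release its first neurons. Progenitors carry the eye field transcription factors Pax6, Rax, Six3, Six6 and Lhx2 and cycle under cyclin D1. Cells that leave the cycle pass through a short neurogenic phase marked by Atoh7, Neurog2 or Otx2, and ganglion cells, cones, horizontal cells and amacrine cells are born first, whereas most rods, bipolar cells and Müller glia follow later.

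The 4 libraries held 3017480, 4328567, 3918910 and 3551538 counts. Each count was divided by the total of its library and scaled to a total of 1000000 (CPM). A 3′ library reads the end of a transcript whatever its length, so CPM values were compared between genes without division by length. Of 57180 rows in the table, 24744 had at least 1 count in a control library, 15127 had a mean of at least 1 CPM, 9825 of at least 10, 2589 of at least 100 and 52 of at least 1000. A gene with no count in any of the 4 libraries may still be present at up to 0.202 CPM, the level of 3 counts in 14816495. The counts were spread over many genes: the 20 highest held 5.52% of them, the 100 highest 13.6% and the 1000 highest 45.8%. Protein-coding genes of the GENCODE M21 annotation took between 95.1% and 95.5% of the counts of a library. All 37 mitochondrial rows stood at 0 in every library, so the mitochondrial share gave no measure of RNA quality here.

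The targeted gene Smo was present in all 4, at 16.3 to 23.9 CPM. In whole tissue, fewer cells of a type and less RNA per cell cannot be told apart.

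Whether a gene differed among the 4 libraries beyond counting noise was asked with a Pearson chi-square test against the libraries' totals, with Benjamini-Hochberg adjustment over 14462 genes with a mean of at least 5 counts. It called 2230 genes, or 15.4% of those tested. The share called rose with depth, from 7.72% of genes between 1 and 10 CPM to 12.5% between 10 and 100, 36.4% between 100 and 1000 and 78.8% at or above 1000. One library carried much of this. Without control 2, 1052 of 14273 genes were called (7.37%), and edgeR's common biological coefficient of variation fell from 16.8% to 7.76%. Shares by level were computed with all 4 libraries only, so a list's share without control 2 has no match by level here. Control 2 held lens RNA, described below, and values that rest on it are given by library or with and without it. A call says that 4 libraries are not copies of one another and takes each count as an independent molecule.

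The 5 genes that check the tissue label were all abundant. Ccnd1, which encodes cyclin D1 and drives progenitors into S phase, was the third highest gene of the transcriptome, at 3281, 3192, 2606 and 3540 CPM in controls 1 to 4 (3155 ± 394, SD, n = 4). Atoh7, the bHLH factor that makes progenitors competent to become ganglion cells, ranked 7th at 2572, 2400, 2859 and 2713 CPM (2636 ± 196). The ranges of the 2 genes overlapped, so their order is not fixed by these libraries. Pax6, required in progenitors for their full range of fates, ranked 123rd at 716, 659, 729 and 686 CPM. Pou4f2, which encodes the ganglion cell factor Brn3b, ranked 920th at 216, 214, 236 and 249 CPM. Otx2, needed for photoreceptor and later bipolar fate, ranked 1275th at 185, 164, 172 and 207 CPM. Like the pigment epithelium list below, it was highest in control 4 and lowest in control 2. The part of that tissue in its level was not tested. Control 2 was the lowest library for Atoh7, Pax6, Pou4f2 and Otx2, and each of the 5 genes differed among the libraries beyond counting noise. The lens counts of control 2 lower the CPM of every other gene of that library by 2.12%. Without control 2 the means of Atoh7, Pax6, Pou4f2 and Otx2 were 2715, 710, 234 and 188 CPM. Control 2 lay below them by more than 2.12%, and the cause was not tested. The ranges of Pax6, Pou4f2 and Otx2 did not overlap with each other or with those of Ccnd1 and Atoh7.

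**Figure D1:**
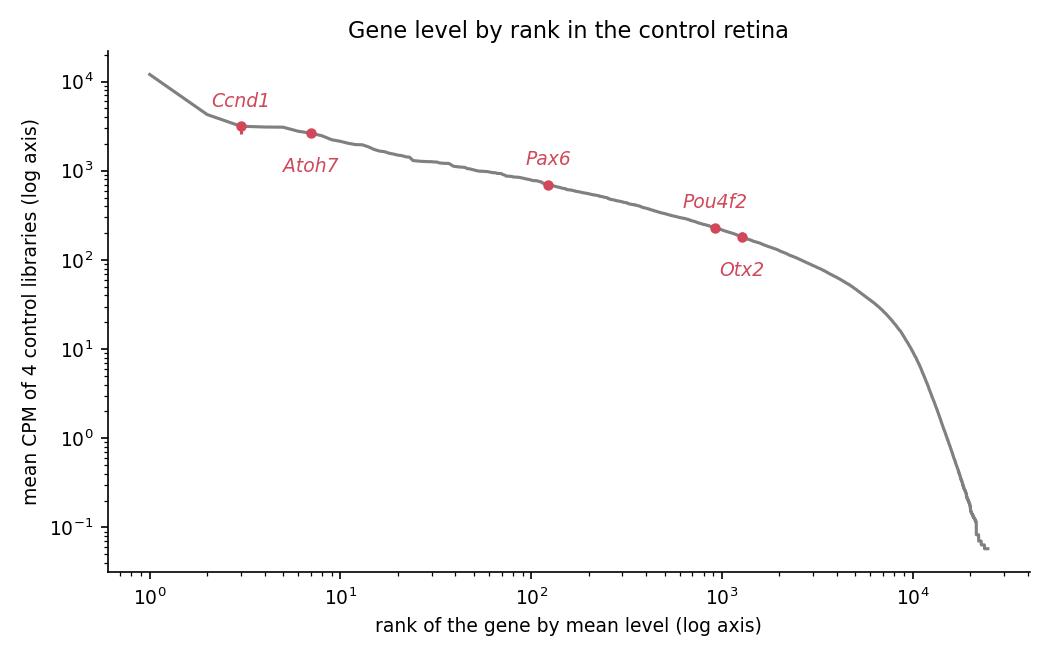
Mean CPM of each gene over the 4 control libraries (vertical log axis) against its rank (horizontal log axis), with the lowest and highest library of the 5 check genes as bars. Ccnd1 (rank 3) and Atoh7 (rank 7) sit near the head of the curve, Pax6 at rank 123, Pou4f2 at rank 920 and Otx2 at rank 1275.

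Atoh7 lies on chromosome 10 (63099651 to 63101279, plus strand, GRCm38, GENCODE M21) and overlaps no other annotated gene. The sequence before its start is shown because Atoh7 ranked 7th of all genes measured. The 250 bases upstream of the RefSeq start are given 5′ to 3′, at chr10:63099535-63099784 of GRCm38.p6, with capitals for each CANNTG (the E-box letters that bHLH factors bind, both strands, 3 matches) and for TATAAA (1 match, both strands searched).

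Atoh7: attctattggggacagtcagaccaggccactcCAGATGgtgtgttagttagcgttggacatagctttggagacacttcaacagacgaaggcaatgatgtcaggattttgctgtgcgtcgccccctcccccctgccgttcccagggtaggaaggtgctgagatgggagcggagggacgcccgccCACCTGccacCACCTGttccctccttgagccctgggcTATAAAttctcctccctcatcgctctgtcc

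Among all 32851 RefSeq windows of this length, 66.2% held CANNTG and 12.4% held TATAAA, so the first is common and a match describes letters only. The RefSeq start lies inside the GENCODE gene, and which start the tags came from was not measured by a 3′ assay.

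The 20 most abundant genes joined housekeeping and growth genes with a few regulators of the developing retina. Rn18s-rs5, annotated as ribosomal RNA related sequence, stood first at 12112, 12288, 11949 and 11663 CPM, with no other gene within its range. Sox11, a SoxC factor of newly born neurons, was second at 4245, 3950, 4585 and 4284 CPM. After Ccnd1 came the nuclear RNA Malat1 (3091 ± 427 CPM), the actin gene Actb (3077 ± 190), the chaperone gene Hsp90ab1 (2772 ± 149), Atoh7, the ubiquitin ligase gene Nedd4 (2463 ± 91.6) and the tubulin gene Tuba1a (2224 ± 166). Genes of RNA binding and translation followed, namely Serbp1 (2134 ± 16.6), Ncl (2028 ± 71.0), Pabpc1 (1853 ± 121), Hnrnpu (1661 ± 51.8), Eif4g2 (1635 ± 46.9) and Hnrnpa0 (1570 ± 79.6). The list also held Tubb5 (1963 ± 102), the membrane-cytoskeleton linker gene Marcks (1954 ± 26.8), the mitotic topoisomerase gene Top2a (1733 ± 107), the secreted Wnt modulator gene Sfrp2 (1536 ± 97.6) and Ttc3 (1495 ± 67.5). Of the 19 pairs of neighbours in this order, 15 had overlapping ranges, and 4 did not. Gapdh had a mean of 87.1 CPM, Hspa8 of 89.6 and Actg1 of 11.7, all chosen after their values were seen. These genes have near-identical copies elsewhere in the genome, and no source used here says how reads matching several places were counted, so their levels are uncertain.

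Progenitor genes had the highest median level of the cell class lists. All 27 genes of the progenitor list reached 10 CPM and 25 reached 100, with a median member at 446 CPM, beside a median of 22.3 CPM over all genes of at least 1 CPM. The list summed to between 14036 and 15001 CPM per library. After Ccnd1, its highest members were Sfrp2, Dkk3 (870 ± 34.2 CPM), a secreted Dickkopf family protein, and Six3 (788 ± 23.7), an eye field homeobox gene. Hes5 and Hes1, the Notch effectors that hold cells in cycle, had 672 ± 64.1 and 527 ± 22.1 CPM. Sox2 had 536 ± 19.7, Six6 471 ± 22.999, Rax 316 ± 28.6 and Lhx2 220 ± 5.50 CPM. The lowest member was Fabp7, at 15.4 ± 4.67 CPM. In the list as a whole 18 of 27 tested members differed among libraries, 11 of them also without control 2 (40.7%, beside 7.37% of all genes). Most members lie between 100 and 1000 CPM, where 36.4% of all genes were called with all 4 libraries.

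Cell cycle genes were abundant too. All 32 genes of the G1/S and replication list and all 28 of the G2 and mitosis list reached 10 CPM, at summed levels of 7623 to 8787 and 7318 to 7961 CPM. In the first list Ccnd1 was followed by the DNA ligase gene Lig1 (564 ± 26.6 CPM), Ccnd2 (530 ± 151) and the helicase subunit gene Mcm7 (442 ± 14.8). In the second, Top2a was followed by the chromatin protein gene Hmgb2 (752 ± 113), the kinetochore gene Cenpf (653 ± 61.0) and Mki67 (418 ± 32.0). Pcna, the replication clamp, was lowest in control 3 (161 CPM, against 212 to 228 elsewhere), as was Ccnd1. Of 9 genes of cell cycle exit, Cdkn1c (223 ± 60.5 CPM) and Cdkn1b (149 ± 9.01), which encode the inhibitors p57 and p27, were the highest, followed by Btg1 (79.9 ± 10.6) and Cdkn2d (68.7 ± 3.03). Cdkn1c and Ccnd2 were highest in control 2, at 312 and 753 CPM, beside 181 to 207 and 424 to 487 CPM in the other libraries. The part of the lens RNA of that library in this was not tested.

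Neurogenic genes were dominated by Atoh7. All 22 genes of the list reached 1 CPM and 21 reached 10, at a summed level of 4891 CPM in control 2 and 5463 to 5685 CPM in the others, and control 2 was the highest library for none of the 22, beside 20.2% of all genes of at least 1 CPM. Onecut2, a factor of early-born retinal types, followed at 836, 722, 896 and 820 CPM. Hes6, which marks cells that leave the progenitor state, had 333 ± 18.8 CPM, and Gadd45a, a growth arrest gene, 199 ± 16.1. The bHLH genes Neurod1 (196 ± 13.7 CPM), Neurog2 (159 ± 21.95) and Neurod4 (66.7 ± 9.19) lay well below Atoh7. The Notch ligand genes Dll1 (43.7 ± 4.87), Dll3 (34.2 ± 6.17) and Dll4 (27.2 ± 3.07) had overlapping ranges. Foxn4, a factor of horizontal and amacrine fates, stood at 58.7 ± 6.14 CPM. In the list 11 of 22 members differed among libraries, beside 15.4% of all genes, and 6 of them also without control 2, beside 7.37%. Of the 22, 9 reached 100 CPM, and 36.4% of all genes between 100 and 1000 CPM were called with all 4 libraries. Whether level alone gives the share of this list was not tested.

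Ganglion cell and early neuron genes formed the other large class. Of 36 genes, 35 reached 1 CPM, 31 reached 10 and 21 reached 100, and the list summed to 12899, 12353, 13461 and 14322 CPM. Sox11 headed it, followed by the neuronal RNA-binding protein gene Elavl4 (1099 ± 68.5 CPM), Sox4 (753 ± 30.04) and the neuronal tubulin gene Tubb3 (750 ± 54.0). The factors that define ganglion cells lay lower: Isl1 had 217, 190, 241 and 240 CPM, Ebf3 229 ± 29.8, Ebf1 229 ± 22.7 and Pou4f1 79.96 ± 1.07. Pou4f3 stood at 3.37 CPM, Eomes at 2.05, Isl2 at 1.64 and Shh, the ligand that ganglion cells release, at 2.35. Thy1, a marker of mature ganglion cells, had 2 counts in control 3 and none in the other libraries.

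Control 4 was the highest library for 24 of the 35 ganglion cell members of at least 1 CPM, whereas 28.3% of all genes of that level were highest there. The growth cone gene Gap43 had 585, 571, 527 and 755 CPM, highest in control 4. The intermediate filament gene Ina had 528, 517, 581 and 701 CPM, and Nefm, another, had 478, 517, 507 and 625. Stmn2, a microtubule regulator of growing axons, had 606, 597, 598 and 723 CPM, and Dcx, another, had 249, 236, 305 and 400. The median member of at least 10 CPM stood 0.167 log2 units above the mean of the other libraries in control 4, against 0.021 over all 9825 genes of at least 10 CPM. Pigment epithelium genes were also highest in control 4, and their part in this was not tested. In the list 18 of 35 tested members differed among libraries, beside 15.4% of all genes and 36.4% of those between 100 and 1000 CPM, and 13 of them also without control 2, beside 7.37% of all genes.

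**Figure D2:**
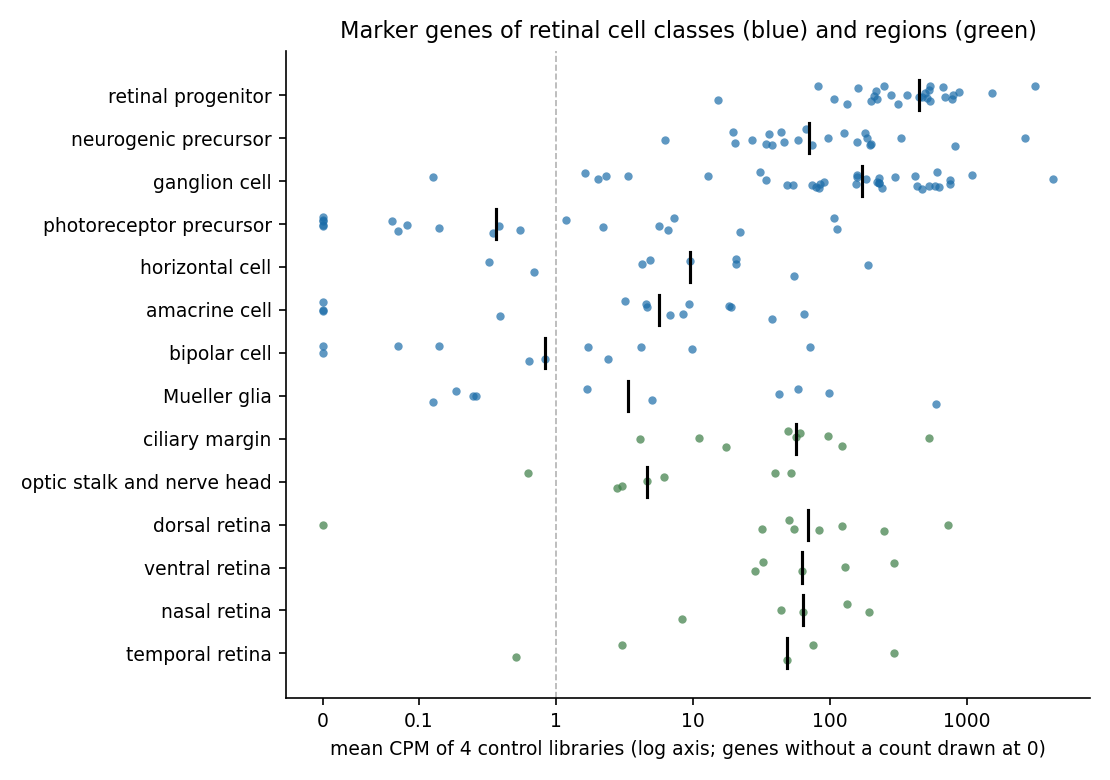
Mean CPM over the 4 control libraries of each marker gene (points, log axis) in lists of retinal cell classes (blue) and retinal regions (green), with the median of each list as a black bar, genes without a count drawn at 0 and a dashed line at 1 CPM. The median member reaches 446 CPM for progenitors and 171 CPM for ganglion cells, and 0.367 CPM for photoreceptor precursors.

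Genes of the other neuron classes were lower, and many late ones had few or no counts. In the photoreceptor list 8 of 20 genes reached 1 CPM. Thrb, the thyroid hormone receptor gene of cone precursors, had 112 ± 8.57 CPM and Prdm1, which holds cells in photoreceptor fate, 107 ± 9.37. Crx, which follows Otx2, had 20.2, 20.8, 17.6 and 29.6 CPM, with control 4 above the others, and Rom1 had 7.25 ± 1.09. Rcvrn, Nr2e3, Guca1a, Opn1sw and Arr3 had no count in any library, and Nrl (0.384 CPM) was at the level of a few counts. In the horizontal cell list 7 of 9 genes reached 1 CPM. Tfap2b, a factor of horizontal and amacrine cells, had 49.7, 52.7, 40.8 and 75.5 CPM, and Onecut3 (20.6 ± 4.48) and Ptf1a (20.5 ± 4.46) were close to each other. Prox1, the highest member, had 127 CPM in control 1, 386 in control 2, 125 in control 3 and 118 in control 4. Prox1 is also a lens fibre gene, and the list summed to 498 CPM in control 2 and to 219 to 264 CPM in the other libraries.

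In the amacrine list 10 of 14 genes reached 1 CPM, at a summed level of 171 to 182 CPM. Gad2, which makes the transmitter GABA, had 64.8 ± 2.42 CPM, Barhl2, a factor of amacrine and ganglion subtypes, 38.0 ± 4.90, Nr4a2 18.9 ± 5.70 and Calb2 18.5 ± 2.25. Gad1, Chat and Vip had no count. In the bipolar list 5 of 11 genes reached 1 CPM. Trpm1 held most of its sum at 71.9, 46.0, 66.6 and 99.96 CPM. This channel gene is shared with pigment cells and was, like the pigment genes below, highest in control 4 and lowest in control 2. Prkca had 9.92 ± 3.75 CPM, Gpr179 4.22 ± 0.471 and Vsx1 2.41 ± 0.724, and Grm6 and Pcp2 had no count. In the Müller glia list 6 of 10 genes reached 1 CPM. Glul (596 ± 35.4 CPM), Car14 (99.5 ± 15.6), Slc1a3 (58.5 ± 15.7) and Apoe (42.4 ± 3.53) led it. Glul alone held most of the mean sum of 804 CPM. Which cells these counts came from was not tested, so the sum is no measure of Müller glia RNA. Rlbp1 stood at 5.01 CPM and Aqp4 at 1.69.

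Genes of the retina's axes were present with both poles of each. On the dorsal side Aldh1a1, a retinoic acid enzyme gene, had 723 ± 81.9 CPM, the guidance ligand gene Efnb2 249 ± 8.49 and the T-box genes Tbx3 and Tbx5 123 ± 11.8 and 83.6 ± 13.6. On the ventral side the receptor gene Ephb2 had 292 ± 8.38 CPM, Aldh1a3 130 ± 19.6, Bmpr1b 62.4 ± 8.14 and Smoc1 32.3 ± 4.81. Of the nasal genes Efna5 had 192 ± 17.5 CPM, Hmx1 133 ± 21.5 and Efna2 64.0 ± 6.77, and of the temporal genes Epha5 had 296 ± 24.3, Foxd1 75.8 ± 6.48, Epha3 49.0 ± 4.75 and Epha6 3.03 ± 0.568. Control 4 was the lowest library for the summed nasal (400 CPM) and ventral lists (492), and control 2 for the temporal list (383 CPM, beside 433 to 443). Cyp26c1 alone of the dorsal list had no count.

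In the ciliary margin list, after Ccnd2, the gap junction gene Gja1 had 123 ± 15.3 CPM, Rdh10 96.8 ± 6.93 and Otx1 61.0 ± 11.2. In the list for the optic stalk and nerve head Vax2 had 52.1 ± 5.56 CPM, Cyp1b1 39.8 ± 4.05 and Sema3e 6.12 ± 1.07. The study names Vax2 as a ventral gene of the optic cup, opposite to the dorsal Tbx5. Its level is therefore no measure of stalk RNA. Pax2, which marks the optic stalk and nerve head, had 9.28, 3.003, 4.08 and 2.25 CPM, so that control 1 was the highest by more than 2 times, on 28 counts.

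Across 694 transcription factor genes sorted into families by name, 424 reached 1 CPM, 298 reached 10, 111 reached 100 and 3 reached 1000, while 147 had no count. Sox11, Atoh7 and Rorb were the 3 above 1000. Rorb, a nuclear receptor of the developing retina, had 1364, 1210, 1351 and 1183 CPM. Behind them came Onecut2, Six3, Sox4, Pax6, Hes5, Foxp1 (542 ± 29.3 CPM, a factor of progenitors), Sox2, Hes1 and Nr2f1 (516 ± 53.9). Tcf4 (512 ± 31.1), an E protein that pairs with proneural factors, Klf7 (474 ± 20.1), a factor of axon growth, and Six6 were next, and then Hif1a (423 ± 19.3), Zic1 (401 ± 34.6) and Id2 (394 ± 25.0). At the other end, 36 of 39 Hox genes had no count and none reached 1 CPM. All 7 genes of the Id and E protein family reached 100 CPM, and all 10 of the E2f family reached 10. In the T-box family 4 of 15 genes reached 10 CPM, and in the Gata family none of 6. Of the 410 factors tested, 109 differed among libraries (26.6%), and without control 2 this was 56 of 403 (13.9%, beside 7.37% of all genes). These shares were not matched by level.

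**Figure D3:**
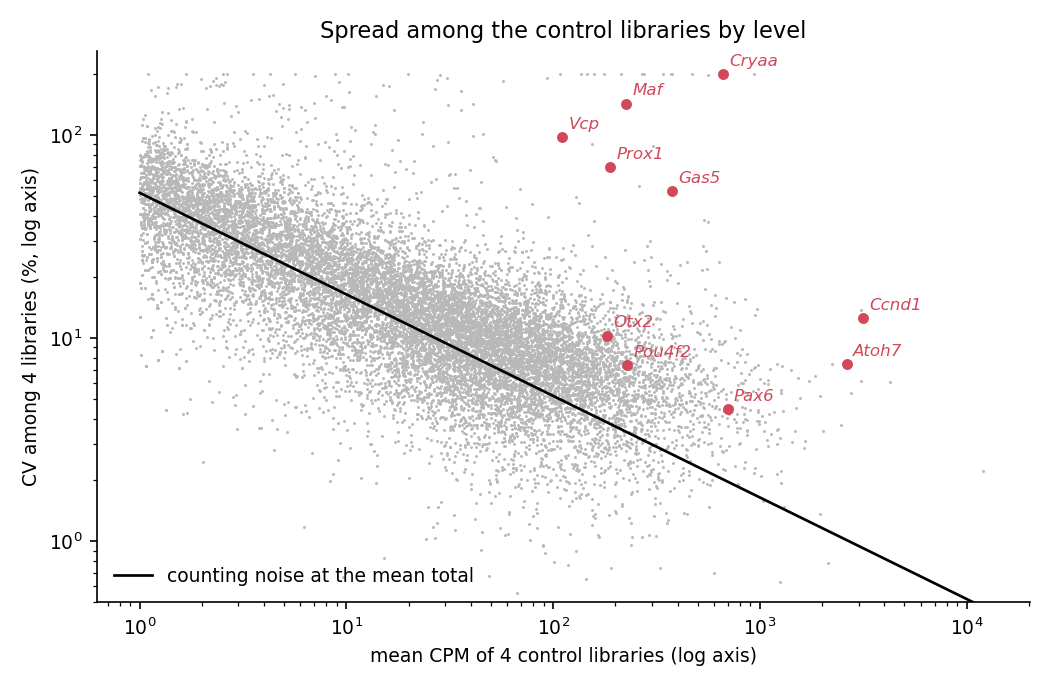
Coefficient of variation (CV) of each gene among the 4 control libraries (percent, log axis) against its mean CPM (log axis), with the line that counting noise alone would give at the mean library total. Cryaa, Maf, Prox1, Vcp and Gas5 lie far above the cloud, Ccnd1 lies at 12.5%, and Pax6 (4.48%) lies closer to the line.

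Receptor genes were present more widely than the genes of their ligands. Of 109 receptor genes, 103 reached 1 CPM and 78 reached 10 (71.6%), and the median receptor stood at 23.96 CPM. Of 121 ligand genes, 87 reached 1 CPM and 42 reached 10 (34.7%), the median ligand stood at 4.30 CPM, and 10 had no count. These shares describe 2 lists of named genes and were not compared by a test.

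The Hedgehog genes are those the study set out to perturb. Smo itself had 23.9, 21.02, 16.3 and 23.4 CPM, from 64 to 91 counts per library. Shh was the highest of 3 ligand genes at 2.32, 2.77, 2.04 and 2.25 CPM. The co-receptor genes Cdon and Gas1 were the highest on the receiving side, at 253, 232, 276 and 209 CPM and at 174, 135, 135 and 125 CPM. Ptch1, both receptor and target, had 69.3, 70.7, 53.3 and 69.3 CPM, and Gli1, the other standard target, had 21.9, 20.1, 11.7 and 28.2. Control 3 was the lowest library for Smo, Ptch1 and Gli1, as it was for Ccnd1. Of these, Ptch1, Gli1 and Ccnd1 differed among the libraries beyond counting noise, and Smo did not pass that test. Gli3 (63.6 ± 2.61 CPM) and Gli2 (47.2 ± 3.50), the other Gli effectors, were above Gli1 in every library.

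In the Notch pathway the receptors Notch1 (161 ± 16.3 CPM) and Notch3 (67.3 ± 6.87) had higher means than the ligands Jag1 (55.5 ± 16.3) and Dll1. Jag1 was highest in control 2, at 79.0 CPM, with 41.8 to 53.1 elsewhere, and was above Notch3 (57.3 CPM) in that library alone. For Wnt signals all 17 receptor genes but 5 of 19 ligand genes reached 1 CPM. Fzd3 (575 ± 49.5 CPM), a receptor needed for axon tracts, and Fzd5 (425 ± 38.4), a receptor of the optic cup, were the highest receptors, and Wnt5a (23.4 ± 2.94) and Wnt7b the highest ligands. Wnt7b had 3.65, 29.1, 2.30 and 3.10 CPM, so its mean rests on control 2. Among FGF genes the ligand Fgf15, a progenitor gene, reached 775 ± 59.5 CPM and Fgf9 102 ± 4.64, against 76.4 ± 6.89 for Fgfr1 and 45.2 ± 4.88 for Fgfrl1. Fgfr3 had 5.63, 28.4, 3.06 and 7.04 CPM, again highest in control 2. In the BMP, activin and TGF-beta group Tgfb2 (378 ± 43.2 CPM) and Gdf11 (69.8 ± 1.83), which limits ganglion cell number, led the ligands, and Acvr2b (230 ± 18.0) and Bmpr2 (214 ± 6.15) the receptors.

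Guidance genes were plentiful on both sides. The ephrin genes Efnb2 and Efna5 and the receptor genes Epha5 and Ephb2, given above for the axes, were the highest of their family. The semaphorin genes Sema6a (168 ± 14.8 CPM) and Sema4c (116 ± 12.7) stood above the receptor genes Plxnc1 (65.8 ± 3.90) and Plxna1 (52.6 ± 2.35). Slit2 (175 ± 26.1 CPM) and its receptor Robo2 (184 ± 7.14) were close to each other and far above Slit1 (8.19 ± 2.07) and Robo1 (33.2 ± 5.41). Slit2 was lowest in control 4, at 137 CPM, with 182 to 197 in the others. The netrin receptor gene Dcc (265 ± 13.7 CPM), which guides ganglion cell axons out of the eye, and Neo1 (138 ± 8.97) were high, against 13.0 ± 0.394 for Ntn4 and 11.2 ± 2.35 for Ntn3. Ntn1, which the nerve head expresses, had 2.82 ± 0.656 CPM.

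In the pleiotrophin and midkine family the ligand genes Mdk and Ptn had 517 ± 35.7 and 113 ± 7.65 CPM, with Ptprz1 (86.8 ± 11.4) and Sdc1 (42.4 ± 6.53) as receptors. Igf1r had 475 ± 28.8 CPM and Igf2r 110 ± 14.1, while Igf1 had 6.75 ± 2.74 and the other ligand gene did not reach 1. Vegfb (49.98 ± 2.11 CPM) and Vegfa (38.3 ± 5.26) faced Kdr (169 ± 12.1) and Flt1 (11.6 ± 4.98). Kdr encodes a VEGF receptor of vessels that retinal progenitors of the mouse also express, and it was more than 10 times each of the 15 other genes of the endothelial list. Bdnf (40.8 ± 5.80 CPM) and its receptor Ntrk2 (65.8 ± 5.69) were above Ntf3 (2.62 ± 0.566) and Ngfr (29.9 ± 7.76). Nrg1 had 24.3 ± 3.05 CPM and Hbegf 8.24 ± 1.93, with Erbb2 (15.9 ± 1.73) and Erbb4 (12.7 ± 1.997) as receptors. Pdgfc had 16.0 ± 3.79 CPM, Pdgfa 10.3 ± 1.29 and the receptor Pdgfrb 5.80 ± 2.64. The other receptor, Pdgfra, had 2.65, 19.9, 2.30 and 3.38 CPM, so that its mean of 7.05 fell to 2.78 CPM without control 2, below Pdgfrb. The chemokine Cxcl12 had 1.66, 2.31, 2.81 and 9.29 CPM, with a mean of 4.02 that was 2.26 without control 4. Cx3cl1 had 2.61 ± 1.48 CPM, and the receptors Cx3cr1 and Ackr3 had 28.3 ± 2.25 and 17.8 ± 4.77. Kitl had 60.4 ± 11.3 CPM, Edn1 4.23 ± 0.282 and Kit 28.4 ± 2.75. Ednrb had 14.9, 60.5, 13.3 and 15.8 CPM, and its mean of 26.1 was 14.65 without control 2. Ret (23.96 ± 4.55) and Gfra1 (17.4 ± 5.40) were above Gdnf (1.02 ± 0.0839), the highest ligand gene of that family.

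**Figure D4:**
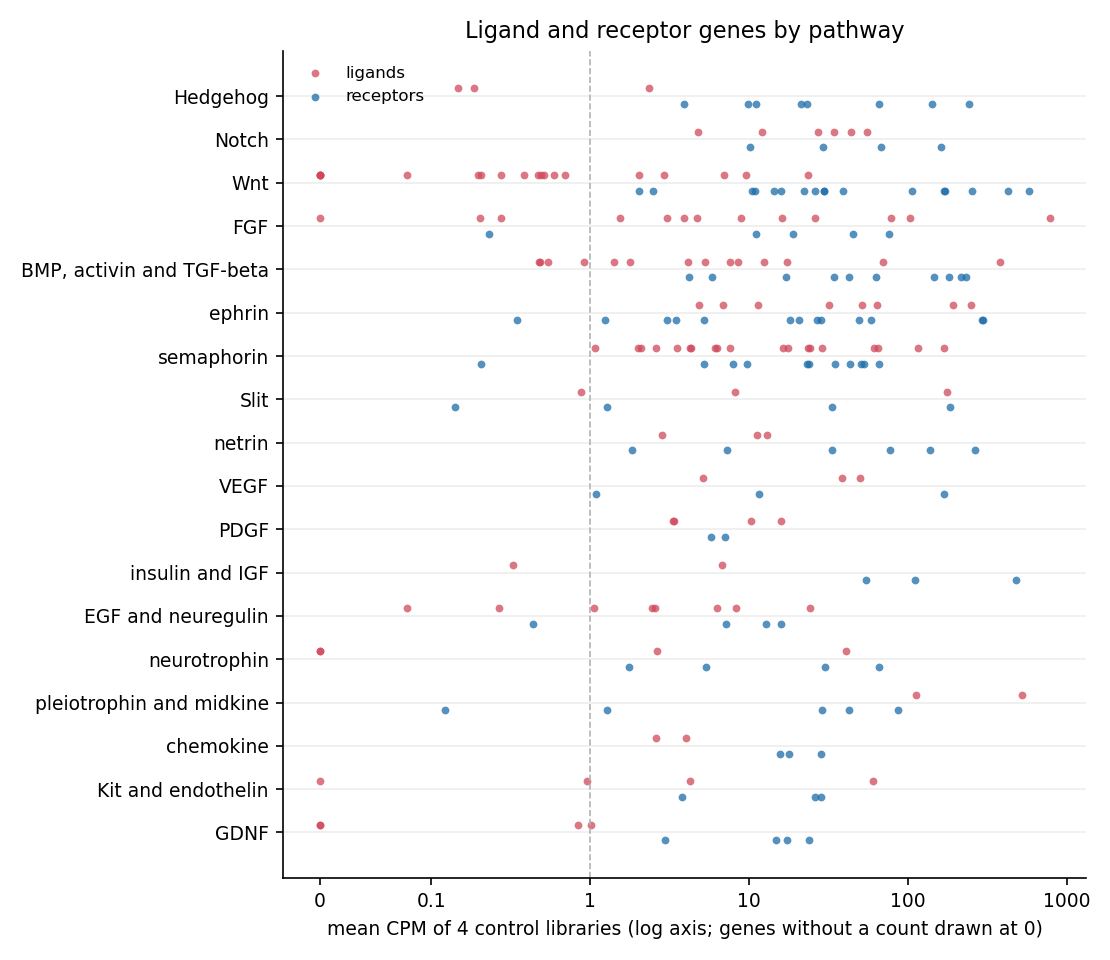
Mean CPM over the 4 control libraries (log axis) of ligand genes (red) and receptor genes (blue) in 18 signalling families, with genes without a count drawn at 0 and a dashed line at 1 CPM. In the Wnt family 17 of 17 receptor genes lie at or beyond the line and 5 of 19 ligand genes.

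RNA of tissues that lie next to the retina was present in each library, and the lens stood out. The lens list of 28 genes summed to 15.6, 21199, 11.7 and 17.5 CPM, so that control 2 held 1214 times the next highest library, and the mean is 5311 CPM with control 2 and 14.9 CPM without it. Lens counts made up 2.12% of that library. The crystallins, which fill lens fibre cells, carried the sum: in control 2 Cryba1 reached 3725 CPM, Cryaa 2661, Cryge 2239, Cryga 1878, Crybb3 1496, Crybb1 1484, Crygb 1354, Crygc 1093, Crygd 1079, Cryba2 847, Crygf 631, Cryba4 545 and Crygn 432. Cryab (119 CPM) and Crygs (35.3) were lower. The fibre membrane genes Mip (704) and Gja3 (113) and the filament gene Bfsp1 (104) were high as well. In the other libraries all of these lay between 0 and 4.64 CPM. Foxe3, a marker of the lens epithelium, had no count even in control 2. Lim2 had no count either, but its identifier is not in GENCODE M21. Whether its reads could be assigned was not tested, so this is no measure of absence.

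Sequences before 3 γ-crystallin genes are shown because these genes of 1 family were high together in control 2. The 80 bases before the RefSeq starts of Crygd (chr1:65063441-65063520, minus strand), Cryge (chr1:65051164-65051243, minus strand) and Crygf (chr1:65926442-65926521, plus strand) in GRCm38.p6 share a run of 33 bases, given in capitals, that no other of the 32851 windows of 250 bases holds on either strand.

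Crygd: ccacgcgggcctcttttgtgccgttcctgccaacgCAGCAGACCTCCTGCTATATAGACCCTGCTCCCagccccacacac

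Cryge: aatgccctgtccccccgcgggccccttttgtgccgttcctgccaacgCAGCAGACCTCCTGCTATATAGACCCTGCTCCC

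Crygf: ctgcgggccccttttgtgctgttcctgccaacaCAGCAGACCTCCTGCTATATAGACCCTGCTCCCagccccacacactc

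These bases lie before the transcript and are not read by a 3′ assay. The γ-crystallin genes are close relatives, their transcript ends were not compared here, and the split of counts among them is uncertain. Cryge had 3.57 to 4.64 CPM in the 3 libraries where Crygd and Crygf had at most 0.766. For the α-crystallin gene Cryaa, the second highest crystallin gene in control 2, the 250 bases before the RefSeq start (chr17:31677681-31677930, plus strand, GRCm38.p6) are given with TGCTGA, the core letters of sites for large Maf proteins, in capitals (both strands searched, 1 match).

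Cryaa: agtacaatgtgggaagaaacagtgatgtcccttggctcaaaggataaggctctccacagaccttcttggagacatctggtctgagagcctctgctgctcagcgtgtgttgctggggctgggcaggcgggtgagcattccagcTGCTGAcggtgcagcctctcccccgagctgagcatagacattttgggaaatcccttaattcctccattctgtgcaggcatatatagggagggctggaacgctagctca

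TGCTGA was found in 10 of the 15 crystallin windows in the table and in 16.1% of all windows. The crystallin windows include those of close relatives and are not independent, so these shares were not compared by a test. A match describes letters only, and neither binding nor a part of Maf in the crystallin levels was tested. Maf, the large Maf gene of lens fibres, had 72.9, 709, 59.2 and 61.7 CPM, so control 2 stood at about the level of an abundant retinal factor and the other libraries lay close together.

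The genes that varied most outside the lists of neighbouring tissues were those of control 2. Among 7852 such genes of at least 20 CPM the median CV was 8.06%, and the 10 highest CVs belonged to Capn3, Vit, Tdrd7, Igfbp7, Maf, Nid1, Ell2, Sox1, Dmrta2 and Rbm24, all of which were highest in control 2. The limit of 20 CPM was set on the mean of all 4 libraries. Without control 2 only Maf (64.6 CPM) and Rbm24 (22.5 CPM) of these 10 would reach it. The others passed through control 2, so their place here follows in part from the filter. Capn3, a calpain gene of muscle and lens, had 3.65, 361, 4.08 and 4.79 CPM, and Vit had 4.31, 216, 5.36 and 4.51. Tdrd7, an RNA granule gene whose loss causes cataract, had 5.63, 94.3, 4.59 and 2.82 CPM. Nid1, a basement membrane gene, had 6.96, 128, 13.3 and 15.5, and Sox1, a SoxB1 gene of lens fibres, 16.6, 107, 6.38 and 13.5. Counted over the whole table, control 2 exceeded 2 times each other library for 75 of 7861 genes of at least 20 CPM there (0.954%), of which 21 were in the lens list and 52 in none of the lists of neighbouring tissues. The same count was 2 genes in control 1 (0.0254%), 2 in control 3 (0.0254%) and 7 in control 4 (0.0885%). Below 0.5 times each other library lay 2 genes in control 1 (0.0268%), 4 in control 2 (0.0533%), 2 in control 3 (0.0268%) and 2 in control 4 (0.0268%).

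**Figure D5:**
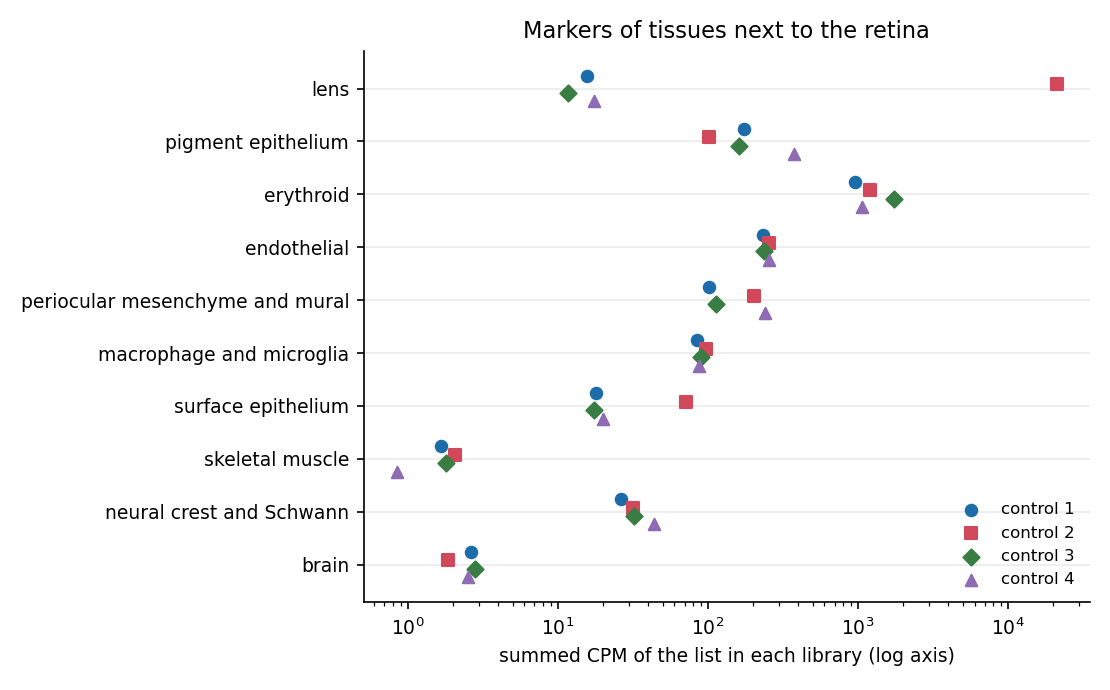
Summed CPM of marker lists of tissues next to the retina in each control library (log axis, 1 marker shape and colour per library). The lens list lies at 21199 CPM in control 2 and at 11.7 to 17.5 CPM in the others, the pigment epithelium list is highest in control 4 (376 CPM) and the erythroid list in control 3 (1750 CPM).

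Pigment epithelium genes were highest in control 4. The list of 17 genes summed to 176, 102, 161 and 376 CPM. The melanosome genes Pmel (37.8, 21.9, 40.6 and 110 CPM) and Dct (36.1, 16.2, 43.9 and 108) carried it, and Gpnmb, Tyr, Slc24a5 and Tyrp1 had the same order of the highest and lowest library. Mitf (21.8 ± 2.42 CPM), the master regulator of pigment cells, did not pass the test of differences among libraries, and Rab38 (23.8 ± 7.16) was highest in control 1. Rpe65 and Lrat, the visual cycle genes of the mature epithelium, had no count. Of the 7 genes that stood above 2 times each other library in control 4, 5 were in this list, and the others were the collagen gene Col3a1 and Pdc, a photoreceptor gene (15.6, 16.2, 18.1 and 38.0 CPM).

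Blood genes were present in all libraries and were highest in control 3, at a sum of 959, 1198, 1750 and 1064 CPM. The embryonic globin gene Hbb-y had 405, 514, 866 and 449 CPM, and Hba-x, another, had 32.1, 36.7, 73.5 and 35.2. Hbb-bs (217 ± 38.8), Hbb-bt (199 ± 38.0) and Hba-a1 (154 ± 44.001) followed the same order of the highest library, but not Car2 (24.1 ± 5.10), which was highest in control 2. Globin genes are near copies of each other, so their split is uncertain. The endothelial list summed to 234 to 256 CPM, 3 of its 15 tested members differed among libraries, near the 15.4% of all genes, and after Kdr its members were low, with Egfl7 at 15.6 ± 2.59, Flt1 at 11.6 ± 4.98 and Cdh5 at 10.9 ± 4.09 CPM. Genes of macrophages and microglia summed to 84.2 to 97.3 CPM, with Cx3cr1, Laptm5 (11.8 ± 3.48), P2ry12 (10.2 ± 1.74) and Mrc1 (7.99 ± 2.06) as the highest of 15.

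Connective tissue genes were highest in control 4 and next in control 2. The list for periocular mesenchyme and mural cells summed to 101, 204, 113 and 240 CPM. Of its 16 members of at least 1 CPM, 11 were highest in control 4, beside 28.3% of all genes of that level. In control 2, 4 were highest, beside 20.2% of all genes, among them Pdgfra and Ogn. Ogn had 1.66, 29.8, 2.55 and 5.07 CPM. The part of the lens RNA of control 2 in this was not tested. Col1a2 had 28.8, 44.6, 30.4 and 66.2 CPM and Fbln1 19.6 to 21.1 in all, whereas Col1a1 had 2.32, 15.5, 5.10 and 20.3 and Col3a1 4.97, 5.54, 6.63 and 21.96. The surface epithelium list summed to 72.1 CPM in control 2 and to 17.4 to 20.0 CPM in the others, through Cdh1, an adhesion gene that lens epithelium shares, at 55.0 CPM in control 2 and 1.53 to 2.25 elsewhere. Epcam (9.76 ± 0.708), Grhl3 (2.48 ± 0.546) and Krt18 (1.88 ± 0.880) were low, and the keratin genes Krt5, Krt14 and Krt15 had no count. The skeletal muscle list stood at 0.845 to 2.08 CPM with 7 of 11 genes without a count, and the brain list at 1.85 to 2.81 CPM with no member at 1 CPM. In the neural crest and Schwann list Ngfr carried 23.2 to 41.1 of the summed 26.5 to 43.9 CPM, and Sox10 had no count.

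Of the stress genes tested, 2 of 8 in the heat shock list and 3 of 10 in the immediate early list differed among libraries, beside 15.4% of all genes and 36.4% of those between 100 and 1000 CPM, which is no result about these lists. The heat shock list summed to 2128 to 2177 CPM, led by Hsp90aa1 (1265 ± 24.5) and Hspd1 (454 ± 7.56), with Hsph1 at 128 ± 8.23 and Hspe1 at 121 ± 8.83. The immediate early list summed to 538 to 608 CPM, led by Btg2 (188 ± 14.2), Jund (157 ± 15.3), Jun (122 ± 7.56) and Dusp1 (49.0 ± 2.76), while Fos had 0.403 ± 0.137 CPM and Egr2 no count. Xist, the RNA of the inactive X chromosome, had 649, 429, 793 and 665 CPM. The Y-linked genes Ddx3y, Eif2s3y and Kdm5d had no count, and Uty had 1 count in control 3. Erdr1y, chosen after its values were seen, is annotated on chromosome Y and had 47.7, 31.7, 20.4 and 9.01 CPM. Where its reads arose was not tested. No source used here gives the sex of the embryos.

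Several genes outside these lists differed between libraries and were chosen after their values were seen. The part of neighbouring tissues in them was not tested. Vcp, a chaperone ATPase gene, had 52.0, 64.5, 273 and 53.5 CPM. Gas5, a non-coding host of small nucleolar RNAs, had 596, 369, 420 and 116, and overlaps those RNAs on the same strand. Rad51b, a recombination gene, had 48.1, 4.16, 45.7 and 28.7 CPM, and the pseudogene Gm11942 had 74.2, 552, 525 and 69.0, so that the libraries fell into pairs. At the other end, the 10 most even genes of at least 200 CPM were Rpl23, Rps12, Ube3a, Tmed9, Serbp1, Dhx15, Yme1l1, Snw1, Ergic1 and Ipo7, with CVs of 0.466% to 1.08%. Rpl23, a ribosomal protein gene, had 932, 937, 929 and 927 CPM. This is less than the 1.70% that counting noise gives at its depth, as the smallest of many CVs can be.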

How the data were processed

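Retinal RNA was made into 3′ tag libraries with unique molecular identifiers (QuantSeq FWD). Per the labels and the methods, reads were aligned with STAR 2.7.0e to the mouse genome (GRCm38, mm10), and featureCounts assigned them to Ensembl genes. Limma and the build GRCh38 also stand in the submitters' processing notes. The count values deposited by the authors are whole numbers per gene, although the table is titled as normalized, and were used as they are. The deposited table also holds a signal column per group, the authors' mean of the counts, which was not used. No source used here says how identifiers, strand and reads with several matches were treated.

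Counts of the 4 control libraries were divided by their totals to give CPM. Python 3.11.15, numpy 2.4.6, scipy 1.17.1, pandas 2.3.3, matplotlib 3.10.9, R 4.3.3 and edgeR 4.0.16 were used, and the test was tried on simulated data. SDs are among libraries (n = 4). Totals of 3017480 to 4328567 counts make 3 counts equal 0.693 to 0.994 CPM in a library, which covers counting error only. Differences among libraries were tested by a Pearson chi-square with 3 degrees of freedom in genes with a mean of at least 5 counts, at a Benjamini-Hochberg adjusted p under 0.05. These p-values measure only the spread between these libraries.

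Named genes were the 5 check genes, the 20 of highest mean, the 4 highest members of each list and its members without a count, the 20 highest transcription factors, the 2 highest ligands and receptors per pathway, the 10 of highest CV from 20 CPM, the 10 of lowest CV from 200 CPM, and members of neighbouring-tissue lists from 20 CPM. Some genes that meet this rule are not reported here. Further members of the lists, and genes stated as such, were chosen after their values were seen. Members and lists were chosen with earlier results of these data known. Other scalings (TMM, median of ratios, totals without lens genes), thresholds, the median and leaving out each library were tried. Promoter sequences are from RefSeq (GRCm38.p6) and gene positions from GENCODE M21.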

Additional observations from a re-analysis of the deposited data

Results flagged for a closer look

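In each group of 4 control values, a library was picked out when its gap to the nearest of the others relative to the whole range exceeded Dixon's critical value. Chance alone picks out about 1 in 20 such groups, and among all 7898 genes of at least 20 CPM the share was 5.95%. Of 30 marker lists, 4 had such a library, in each case control 2. It was the highest for the lens list (21199 CPM), the horizontal cell list (498) and the surface epithelium list (72.1), and the lowest for the temporal list (383).

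Of 276 genes of the report that had a count and were screened this way, 48 had a library apart. In 34 of these it was control 2 as the highest. Many of these genes were named because they varied, so their number is not a rate. The crystallin genes of control 2, in CPM, were Cryaa (2661), Cryab (119), Cryba1 (3725), Cryba2 (847), Cryba4 (545), Crybb1 (1484), Crybb3 (1496), Cryga (1878), Crygb (1354), Crygc (1093), Crygd (1079), Cryge (2239), Crygf (631), Crygn (432) and Crygs (35.3). Other genes of lens fibres apart in control 2 were Mip (704), Gja3 (113) and Bfsp1 (104). The genes of the 10 highest CVs were Maf (709), Capn3 (361), Vit (216), Igfbp7 (124), Nid1 (128), Rbm24 (115), Sox1 (107), Ell2 (96.3), Tdrd7 (94.3) and Dmrta2 (64.5). Further genes highest in control 2 were Prox1 (386), Cdh1 (55.0), Ednrb (60.5), Wnt7b (29.1), Fgfr3 (28.4) and Pdgfra (19.9).

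Control 4 was apart as the highest library for the pigment genes Gpnmb (34.1), Slc24a5 (21.7) and Tyrp1 (13.0), for the collagen gene Col3a1 (21.96), for the neuronal gene Stmn2 (723), for the photoreceptor gene Pdc (38.0) and for the chemokine gene Cxcl12 (9.29). Control 3 was apart as the highest for Vcp (273), Hba-x (73.5) and Plxna1 (56.1) CPM, and as the lowest for Ptch1 (53.3). It was also the sole library with a count of Thy1 (0.510 CPM, 2 counts) and of Uty (0.255 CPM, 1 count). Control 1 was apart as the lowest for Rom1 (5.63).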

How the results depend on the processing

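Across 46 results and 344 alternatives, 339 alternatives stayed within the limits set. For a level, the limit was 1 SD among libraries, which neither leaving out a library nor taking the median can exceed. Those alternatives could not fail, so the count of 339 is no measure of stability. Without control 2 the summed lens level went from 5311 to 14.9 CPM, and as a median to 16.5. The surface epithelium level went from 31.8 to 18.4 and 18.9 in turn. The number of genes that differed among libraries was 699 when the test statistic was divided by its median ratio, and 1052 to 2103 when each library was left out in turn, with 1052 without control 2, in place of 2230. Without control 2, chosen after its lens counts were seen, 11 progenitor and 6 neurogenic list members were called, and the common biological CV was 7.76%. The cause was not tested. No paired analysis was possible because a single group was analysed. With 1 library for each labelled day and totals of 3017480 to 4328567 counts, levels near 1 CPM rest on few counts.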
